A study of Mus musculus with 8 samples.

Results

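The mRNAs of the cytosolic ribosomal proteins were examined in naive CD4 T cells and in effector Th1, Th2 and Th17 cells. The genes were chosen by symbol, as the Rpl and Rps symbols of the cytosolic ribosome with *Rpsa*, *Rplp0*, *Rplp1* and *Rplp2*. The files listed 84 such symbols, and 78 of them, those averaging 1 FPKM or more across the 8 libraries, are described here. They were 46 genes of the large and 32 of the small ribosomal subunit, among 11198 genes that passed the same limit. FPKM counts the fragments of a gene relative to the length of its exons and to all fragments sequenced.

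The cytosolic ribosome translates mRNA, with a small subunit that reads the message and a large subunit that joins amino acids. Its proteins are made in matched amounts and assembled on ribosomal RNA in the nucleolus. Many of their mRNAs begin with a run of pyrimidines, the 5′ terminal oligopyrimidine (TOP) motif, through which mTOR signalling controls their translation, and stimulated T cells enlarge and make ribosomes before they divide. Ribosomal protein genes have left many processed pseudogenes in the genome, intronless copies whose sequence can be nearly that of the mRNA.

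Every library was made from DO11.10 Tg mice, which bear a transgenic TCR against an OVA peptide. Naive cells were splenic CD4 T cells sorted as CD44low CD62Lhi, and effector cells came from 6-day cultures with OVA peptide and splenocytes that had been irradiated and depleted of T cells. The Th1 condition combined 30 U/ml of IL-2, 100 U/ml of IL-12 and 1 μg/ml of anti-IL-4 Ab. The Th2 condition combined 30 U/ml of IL-2, 100 U/ml of IL-4 and 10 μg/ml of anti-IFNγ Ab. The Th17 condition combined 10 ng/ml each of IL-6, IL-1β and IL-23 with 10 μg/ml each of anti-IL-4 and anti-IFNγ Abs. Each group had 2 libraries, and whether they came from separate mice or cultures is not stated, so p-values measure only the spread between these libraries. Naive cells were taken directly from the spleen, so that culture, stimulation and differentiation cannot be told apart in any effector minus naive difference. The libraries are bulk RNA, in which fewer cells of a type and less RNA per cell cannot be told apart.

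The confidence intervals of the FPKM values imply 14463538 to 21058108 fragments per library, an estimate that takes the intervals to hold counting error only. The naive libraries were the shallowest of the 4 groups. The summed FPKM of the Th1, Th2 and Th17 marker lists was highest in the subset of the same name, and that of the naive list in the naive libraries. Summed B cell markers were 2.15 to 11.4 FPKM and NK cell markers 0.0769 to 1.44 FPKM over the 8 libraries, against 937 to 1736 FPKM for T cell markers. Erythroid markers summed to 6.04 and 5.68 FPKM in the naive libraries and to 0.185 to 0.700 in the effector libraries, and myeloid markers to 22.6 and 14.3 in Th2 against 5.38 to 12.8 in the other libraries, and the part of either was not tested. The CD8 T cell markers *Cd8a* and *Cd8b1* summed to 93.4 and 54.5 FPKM in the naive libraries and to 8.94 to 13.0 FPKM in the effector libraries. Most of this was *Cd8b1*, at 90.5 and 52.8 FPKM in the naive libraries, where *Cd8a* was at only 2.94 and 1.77. The part of these markers in the differences below was not tested. The 4 neutrophil markers summed to 6.52 to 7.65 FPKM in replicate 1 of the 3 effector groups and to 0.0425 to 0.545 FPKM in replicate 2. In replicate 1 of these groups, *Mpo* was at 2.46 to 4.89 FPKM and *Elane* at 2.59 to 3.71. The others did not follow, *S100a8* being at 0.174 to 0.663 FPKM there and *S100a9* at 0 in every effector library. The part of these markers was not tested either.

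The start of the mRNA is where the TOP motif lies, so 30 bases around the annotated start (10 before it, 20 from it on) are shown for 8 named genes picked for holding a pyrimidine run, 4 that were higher in all 3 effector subsets, 1 that was lower in Th1 and Th17 cells, and 3 that passed no effector minus naive test, and for 2 genes without a run, *Rpl41* and *Rpl24*, that were higher in all 3. The capitals mark a run of at least 5 pyrimidines that begins with C within 10 bases of the start, on either side. In *Rps27l* the run ends before the annotated start, so an mRNA that begins there would not hold it. Runs placed in this way are included in the counts below. Sequences and positions are from RefSeq, GRCm38.p6, which lists 2 starts for *Rps27l* and for *Rps24*, of which the one with the run is shown.
Rpl28, higher, chr7:4792955-4792984, plus strand: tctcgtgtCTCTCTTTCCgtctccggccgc
Rps26, higher, chr10:128626487-128626516, minus strand: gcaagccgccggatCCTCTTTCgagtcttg
Rpl36a, higher, chrX:134585644-134585673, plus strand: cccaggcaccgcctataaaCTTCCgttgcg
Rps27l, higher, chr9:66946076-66946105, plus strand: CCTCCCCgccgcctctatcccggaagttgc
Rps24, lower, chr14:24490668-24490697, plus strand: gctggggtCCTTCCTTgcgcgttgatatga
Rps6, not passed, chr4:86857348-86857377, minus strand: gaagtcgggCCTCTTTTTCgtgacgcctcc
Rps9, not passed, chr7:3704031-3704060, plus strand: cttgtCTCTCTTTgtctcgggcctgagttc
Rplp2, not passed, chr7:141447641-141447670, plus strand: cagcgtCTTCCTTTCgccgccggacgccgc
Rpl41, higher, no run, chr10:128549149-128549178, minus strand: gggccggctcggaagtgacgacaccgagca
Rpl24, higher, no run, chr16:55966265-55966294, plus strand: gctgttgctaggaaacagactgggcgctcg

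Such a run was present in 36 of the 59 genes of the set that had a RefSeq promoter (61.0%), against 34.4% of the 27025 genes with a promoter. Among these 59 genes, the run was found in 9 of the 16 with a promoter that were higher in all 3 effector subsets and in 24 of the 37 that passed no effector minus naive test. In the whole promoter of 250 bases before and 50 after the start, searched on both strands, CCGGAA (the core of an ETS factor motif) was present in 33 of the 59 (55.9%) against 16.7% of all. AAGATGGC, the core of a YY1 motif, was present in 6 of the 59 (10.2%) against 3.19% of all. TATAAA was present in 7 of the 59 (11.9%) against 15.7% of all. A match is a description of the letters and not a site of binding.

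The ribosomal protein mRNAs were among the most abundant in every library. Summed over the 78 genes, FPKM was 71713 and 63353 in naive cells, 73032 and 74882 in Th1 cells, 79788 and 73951 in Th2 cells, and 74377 and 75551 in Th17 cells. These sums were 14.3% and 15.2% of all FPKM in naive cells, 14.2% and 15.6% in Th1 cells, 15.8% and 16.8% in Th2 cells, and 14.8% and 15.7% in Th17 cells. The share in both Th2 libraries lay above that in both naive libraries, whereas the shares in Th1 and Th17 overlapped those in naive cells. The highest genes weigh most in such sums. *Rplp1* was at 6743 and 5833 FPKM in Th2 cells against 5045 and 4691 in naive cells. *Rpl41* was at 4507 and 4344 against 2270 and 1785. The share without these genes was not computed, so the Th2 difference is not shown for the set as a whole.

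The genes of the large subunit summed to 36881 and 32767 FPKM in naive cells and to between 40059 and 45749 in the 6 effector libraries, all of them above both naive libraries. As a share of all FPKM they were 7.35% and 7.84% in naive cells and 7.80% to 9.64% in the effector libraries, Th1 replicate 1 lying below naive replicate 2. The genes of the small subunit summed to 34832 and 30586 FPKM in naive cells and to between 31428 and 34039 in the effector libraries, all within the range of the naive libraries. As a share of all FPKM they were 6.94% and 7.32% in naive cells and 6.42% to 7.13% in the effector libraries, of which Th1 replicate 1, Th2 replicate 1 and both Th17 libraries lay below both naive libraries. Median FPKM over the 78 genes was 780 and 660 in the naive libraries and 746 to 845 in the effector libraries.

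**Figure D1:**
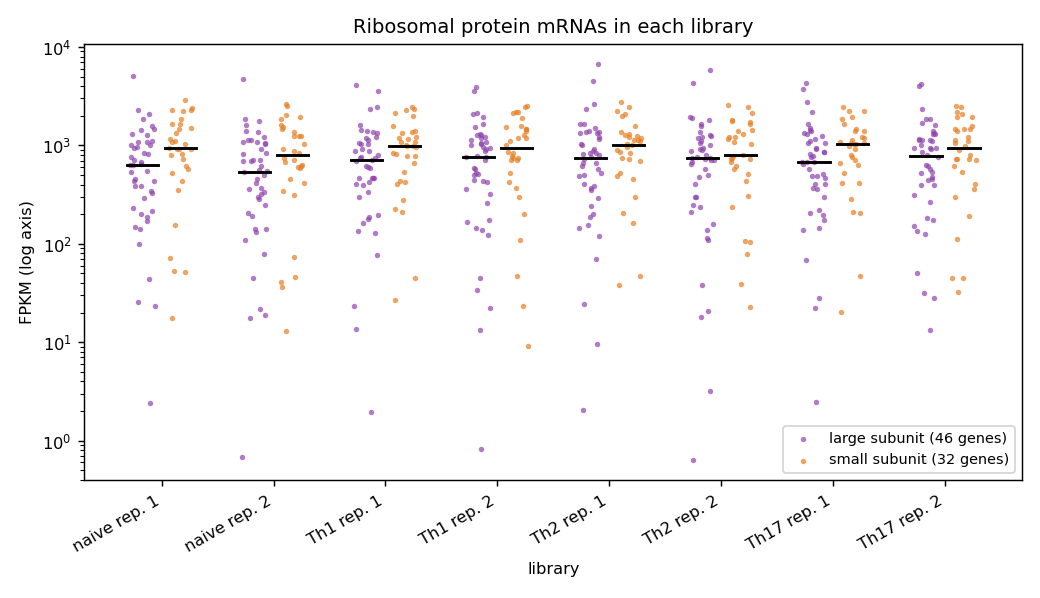
FPKM (log axis) of each of the 78 ribosomal protein mRNAs in each library, with large subunit genes in purple, small subunit genes in orange and the median of each subunit as a black line. Most genes lie above 100 FPKM in every library, and 7 have a mean below it.

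Levels differed widely between the genes of the set. The highest mean FPKM over the 8 libraries was 4674 for *Rplp1*, an acidic protein of the ribosomal stalk, then 3646 for *Rpl41*, the smallest ribosomal protein, 2477 for *Rps15*, 2331 for *Rps9* and 2286 for *Rps4x*. The lowest was 1.45 for *Rpl29*, just inside the limit, then 14.8 for *Rpl30*, 23.7 for *Rpl7l1*, 24.2 for *Rps2* and 45.5 for *Rpl7a*. Just outside the limit was *Rpl21* with a mean of 0.75. *Rpl39l* (0.52), *Rps4y2* (0.18) and *Rpl3l* (0.10) also fell below it, *Rpl10l* was listed at 0 in all 8 libraries, and *Rpl26* was at most 0.000134 FPKM in any library. The low values of genes such as *Rpl21*, *Rpl26* and *Rps2* stand beside shared sequence, as follows.

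Sequence shared with pseudogenes was counted as the share of 50-base words (the read length) of a gene's annotated coding sequence that also occur in a transcript of another gene. The median share over the 78 genes was 91.4%, and 28 of them had no word of their own. Among the 28 were *Rpl24*, *Rpl28*, *Rpl36a*, *Rpl41* and *Rps29*, whose differences are described below. *Rpl3* shared 95.7% of its words, *Rps26* 73.0% and *Rps27l* 48.3%. *Rpl21* shared 100% of its words with other genes, 81 pseudogenes among them, *Rpl29* 90.3% (81 pseudogenes), *Rpl7a* 93.3% (120 pseudogenes) and *Rps2* 84.1% (71 pseudogenes). The 7 genes under 100 FPKM shared words with a median of 50 pseudogenes, and the 71 others with a median of 8. Across the 78 genes, Spearman's rho between the number of such pseudogenes and mean FPKM was -0.45, a description in which genes share families and libraries. With the effector minus naive differences, rho of the same number was 0.04 for Th1, -0.05 for Th2 and 0.01 for Th17.

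For *Rpl26*, the row that held signal was that of a pseudogene. *Gm15772*, a processed pseudogene, shared 74.1% of the words of *Rpl26*, and its FPKM was 1048 and 773 in naive cells, 1212 and 998 in Th1 cells, 1335 and 1163 in Th2 cells, and 1280 and 1036 in Th17 cells, against at most 0.000134 for *Rpl26*. The coding sequence of *Rpl26* and the matching bases of *Gm15772* differed at 2 of 435 positions. Bases 78 to 177 of that sequence are shown to let the likeness be seen, with the differing base in capitals (GENCODE vM21, GRCm38).
Rpl26: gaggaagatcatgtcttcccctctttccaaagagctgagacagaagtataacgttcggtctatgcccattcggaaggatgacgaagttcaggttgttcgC
Gm15772: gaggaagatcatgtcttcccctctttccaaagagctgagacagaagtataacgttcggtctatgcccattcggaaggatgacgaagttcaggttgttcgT

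*Rpl30*, whose protein binds a kink-turn in RNA, was in a like position. Its FPKM was 25.6 and 17.4 in naive cells, 13.7 and 13.2 in Th1 cells, 9.55 and 3.21 in Th2 cells, and 22.5 and 13.4 in Th17 cells. *Gm12191*, a processed pseudogene that differed from its coding sequence at 1 of 345 positions, was at 449 and 419 in naive cells, 336 and 413 in Th1 cells, 367 and 540 in Th2 cells, and 356 and 414 in Th17 cells. The replicate of Th2 with the lowest *Rpl30* therefore had the highest *Gm12191*. The values of *Rpl30* and *Rpl26* are thus uncertain, since reads could be split between these rows. The same holds for other genes that share words with an expressed row. Among them were *Rpl22l1* with *Gm15421* (81.4% of its words), *Rpl31* with *Rpl31-ps12* (62.0%) and *Rps15a* with *Rps15a-ps6* (54.8%). Others were *Rps24* with *Gm9320* (45.4%) and *Rps26* with *Gm6654* (41.9%). *Rps23* shared 91.8% of its words with *Gm5148*, which is annotated as protein coding.

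**Figure D2:**
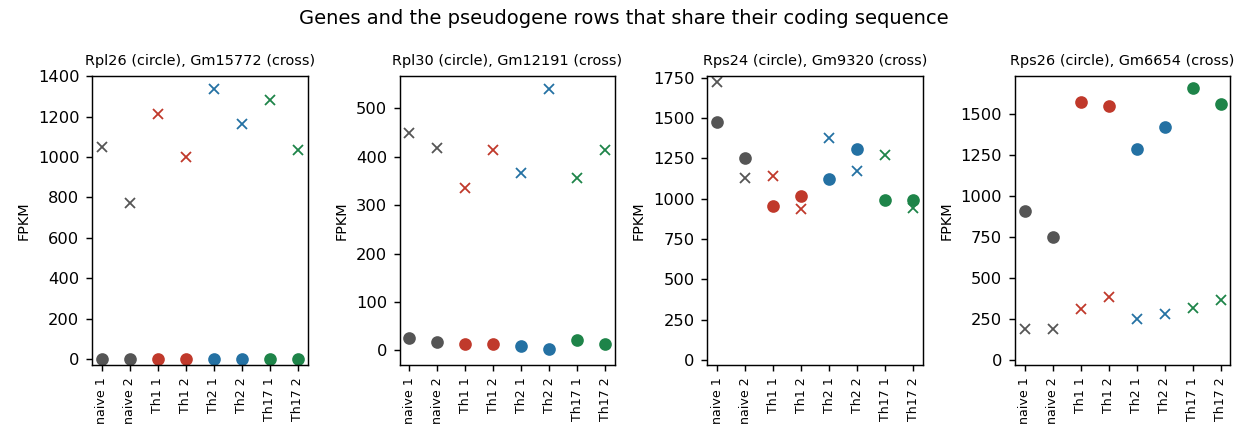
FPKM of 4 ribosomal protein genes (circles) and of a pseudogene row that shares their coding sequence (crosses) in each of the 8 libraries, with groups in colour. *Gm15772* and *Gm12191* lie above their genes in every library, and *Rps26* lies above *Gm6654* in every library.

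The comparison of effector with naive cells showed part of the ribosomal protein mRNAs higher in each subset, a smaller part lower, and *Rps29* lower in every subset. The test was limma on log2(FPKM + 1) with all 8 libraries in 1 fit, adjusted by Benjamini-Hochberg over all genes tested. In Th1 cells, 21 of the 78 genes were higher and 3 lower than in naive cells, against 33.8% and 33.5% of all genes tested. In Th2 cells, the counts were 21 higher and 3 lower, against 31.8% and 38.7% of all genes. In Th17 cells, they were 21 higher and 3 lower, against 37.5% and 29.8% of all genes. The share of ribosomal protein genes that were higher (26.9% in each subset) was thus below the background, and the share that were lower (3.85%) was far below it. On the log2 scale the median difference over the 78 genes was 0.16, 0.20 and 0.16 in Th1, Th2 and Th17, and that over all genes was -0.01, -0.11 and 0.08. After quantile normalization the median over the 78 genes was -0.02, 0.07 and -0.02, so that its sign turned in Th1 and Th17, and that over all genes was -0.13, -0.13 and -0.12. Median scaling moved the median of all genes in Th2 from -0.11 to 0.00, and that of the 78 genes to 0.34. Without naive replicate 2 the median over the 78 genes was 0.06, 0.10 and 0.09, and without naive replicate 1 it was 0.32, 0.36 and 0.28.

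With the replicate number as a block, 27 genes were higher and 5 lower in Th1 (background 36.7% and 37.2%), 28 and 8 in Th2 (34.5% and 42.1%), and 27 and 5 in Th17 (40.5% and 32.9%). Without naive replicate 2, Th1 replicate 1 or Th1 replicate 2, 10 genes were higher in Th1, and without naive replicate 2 or either Th17 library, 13 were higher in Th17. Centred on the mean of these genes, the counts were 8 higher and 7 lower in Th1 cells, 10 and 9 in Th2 cells, and 8 and 10 in Th17 cells, and after quantile normalization they were 9 and 4, 17 and 5, and 14 and 4.

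In each of the 3 subsets, 17 of the 46 large subunit genes were higher (37.0%), and 4 of the 32 small subunit genes (12.5%), where 31.8% to 37.5% of all genes were higher. The difference between the subunits was not tested. The median difference of large subunit genes was 0.23, 0.26 and 0.30 in Th1, Th2 and Th17, and that of small subunit genes 0.13, 0.03 and 0.10. Over the 3 comparisons, 24 genes were called higher at least once and never lower, 5 were called lower and never higher, and 49 passed in none. Most differences were small. The difference was under 0.5 on the log2 scale in either direction for 61 genes in Th1, 59 in Th2 and 56 in Th17. The smallest difference called was 0.32, that of *Rpsa* in Th17. Of the 55 differences of named genes that passed, 17 passed under every alternative tried, and 32 lost the call in at least 1 fit with a library left out.

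**Figure D3:**
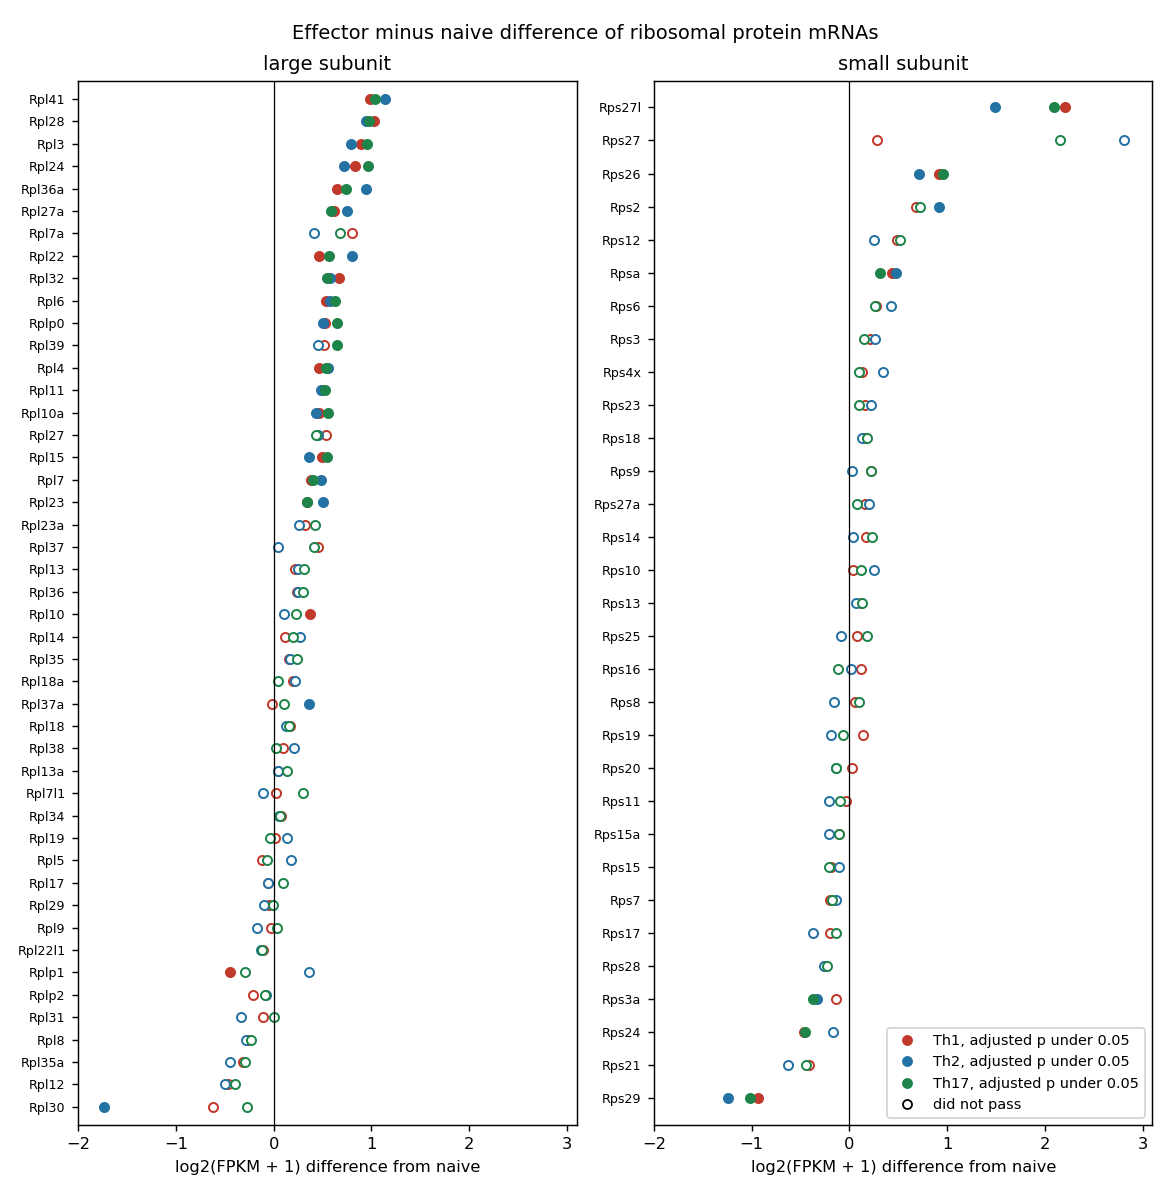
Difference from naive cells on the log2(FPKM + 1) scale for 77 of the ribosomal protein mRNAs in Th1 (red), Th2 (blue) and Th17 (green), for the large subunit (left) and the small subunit (right), with filled points for an adjusted p-value under 0.05 (limma). Most points lie between -0.5 and 0.5, *Rps27l* stands far to the right and *Rps29* to the left.

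The genes higher in all 3 subsets numbered 19 (24.4%, against 24.8% of all genes tested), 16 of the large subunit and 3 of the small. They were *Rpl3*, *Rpl4*, *Rpl6*, *Rpl7*, *Rpl10a*, *Rpl11*, *Rpl15*, *Rpl22*, *Rpl23*, *Rpl24*, *Rpl27a*, *Rpl28*, *Rpl32*, *Rpl36a*, *Rpl41*, *Rplp0*, *Rps26*, *Rps27l* and *Rpsa*. The 1 gene lower in all 3 was *Rps29* (background 23.8%). With the replicate block, 23 were higher in all 3 (background 27.1%), *Rpl23a*, *Rpl27*, *Rpl39* and *Rps6* being added, and 3 were lower (background 26.9%), *Rpl12* and *Rpl35a* being added. For 26 genes each of the 6 effector libraries exceeded both naive ones (background 30.5%). They lay below both for 5 genes (background 31.1%), *Rpl8*, *Rps3a*, *Rps7*, *Rps28* and *Rps29*. The 3 comparisons share the naive libraries and are not independent.

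*Rps27l*, a paralog of the zinc-binding protein gene *Rps27* that is known as a p53 target, had the largest rise of the genes called in each subset. Its FPKM was 51.3 and 40.4 in naive cells, 227 and 200 in Th1 cells, 161 and 105 in Th2 cells, and 203 and 193 in Th17 cells. Every effector library was above both naive libraries, and both Th2 libraries were below all Th1 and Th17 libraries. The mean was 4.66 times the naive mean in Th1, 2.90 times in Th2 and 4.32 times in Th17. On the log2(FPKM + 1) scale the differences were 2.20, 1.49 and 2.10 (SE 0.21, adjusted p = 0.000108, 0.000661 and 0.000127, limma), and they passed under every alternative tried.

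*Rps27* itself could not be placed. Its FPKM was 71.7 and 36.7 in naive cells, 400 and 9.04 in Th1 cells, 1245 and 107 in Th2 cells, and 1184 and 44.8 in Th17 cells. Replicate 1 was above replicate 2 in each group, by 5.32 on the log2 scale in Th1, so that the effector libraries lay on both sides of the naive ones. The differences were 0.28 in Th1, 2.81 in Th2 and 2.15 in Th17 with an SE of 2.16, and none passed (adjusted p = 0.922, 0.279 and 0.407, limma). With the replicate block, the Th2 difference passed (adjusted p = 0.0369). All 50-base words of the coding sequence of *Rps27* occur in another gene, against 48.3% for *Rps27l*. The 2 coding sequences differ at 60 of 252 positions, and they are printed to show where the paralogs differ, with differing bases in capitals (GENCODE vM21).
Rps27: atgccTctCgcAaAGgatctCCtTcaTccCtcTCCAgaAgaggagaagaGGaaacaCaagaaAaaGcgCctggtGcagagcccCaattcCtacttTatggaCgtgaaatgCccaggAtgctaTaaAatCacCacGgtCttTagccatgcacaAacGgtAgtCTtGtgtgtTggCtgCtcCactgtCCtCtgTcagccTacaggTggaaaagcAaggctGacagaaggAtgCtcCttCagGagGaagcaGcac
Rps27l: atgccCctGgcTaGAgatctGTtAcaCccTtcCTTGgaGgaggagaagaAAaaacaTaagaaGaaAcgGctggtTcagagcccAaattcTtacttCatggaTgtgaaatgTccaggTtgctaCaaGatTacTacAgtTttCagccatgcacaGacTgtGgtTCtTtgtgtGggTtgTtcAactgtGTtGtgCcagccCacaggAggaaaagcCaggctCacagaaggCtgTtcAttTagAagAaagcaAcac

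*Rpl41* and *Rpl28* about doubled. The FPKM of *Rpl41* was 2270 and 1785 in naive cells, 4095 and 3879 in Th1 cells, 4507 and 4344 in Th2 cells, and 4258 and 4030 in Th17 cells, so that every effector library was above both naive libraries while the Th1 and Th17 values overlapped. Its differences were 0.99, 1.14 and 1.04 (SE 0.16, adjusted p = 0.00154, 0.000678 and 0.00113, limma), and all 3 calls were lost with no filter on low values (adjusted p = 0.343, 0.25 and 0.293). The coding sequence of *Rpl41* is only 75 bases long, in an annotated mRNA of 437 bases, and FPKM is taken over all exons. The FPKM of *Rpl28* was 384 and 415 in naive cells, 707 and 940 in Th1 cells, 655 and 910 in Th2 cells, and 676 and 910 in Th17 cells. Its differences were 1.03, 0.95 and 0.97 (SE 0.23, adjusted p = 0.00644, 0.00856 and 0.00818, limma), and without Th2 replicate 2 or Th17 replicate 2 the call in that subset was lost (adjusted p = 0.0587 in both).

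*Rpl3*, *Rpl24* and *Rpl36a* were also among the largest rises called. *Rpl3*, which lies near the peptidyl transferase centre, was at 439 and 460 FPKM in naive cells, 770 and 912 in Th1 cells, 754 and 806 in Th2 cells, and 823 and 930 in Th17 cells. *Rpl24*, part of a bridge between the subunits, was at 202 and 191 FPKM in naive cells, 336 and 364 in Th1 cells, 352 and 297 in Th2 cells, and 370 and 399 in Th17 cells. For both genes, every effector library was above both naive libraries. Of the coding words, 95.7% of those of *Rpl3* and 100% of those of *Rpl24* occur in another gene. No alternative added a pseudogene row to either, so the effect of shared reads on them was not tested. The mean of *Rpl3* was 1.74 to 1.95 times the naive mean and that of *Rpl24* 1.65 to 1.96 times, and all 6 differences passed under every alternative tried. *Rpl36a* was at 331 and 248 FPKM in naive cells, 463 and 437 in Th1 cells, 528 and 577 in Th2 cells, and 514 and 445 in Th17 cells, with differences of 0.65, 0.94 and 0.74 (SE 0.16, adjusted p = 0.0104, 0.0017 and 0.00585, limma).

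*Rps26*, which lies at the mRNA exit of the small subunit, was at 912 and 752 FPKM in naive cells, 1577 and 1550 in Th1 cells, 1289 and 1420 in Th2 cells, and 1661 and 1565 in Th17 cells. The differences were 0.92, 0.71 and 0.96 (SE 0.14, adjusted p = 0.00108, 0.00348 and 0.000831, limma), and they passed under every alternative tried. *Gm6654*, the pseudogene row that shares its sequence, was at 190 and 192 FPKM in naive cells and at 249 to 384 in the effector libraries. *Rps2*, the small subunit protein uS5, was higher in Th2, with 17.6 and 13.0 FPKM in naive cells and 38.4 and 22.6 in Th2 (difference 0.92, SE 0.30, adjusted p = 0.0301, limma), and its differences of 0.68 in Th1 and 0.72 in Th17 did not pass (adjusted p = 0.0855 and 0.0732).

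*Rps29*, a zinc-binding protein of the small subunit, was lower in all 3 subsets. Its FPKM was 2412 and 2610 in naive cells, 1089 and 1571 in Th1 cells, 1028 and 1088 in Th2 cells, and 1032 and 1483 in Th17 cells. The means were 0.530, 0.421 and 0.501 times the naive mean, and every effector library was below both naive libraries. The differences were -0.94, -1.25 and -1.02 (SE 0.23, adjusted p = 0.0101, 0.00254 and 0.00694, limma). Without Th1 replicate 1 the Th1 call was lost (adjusted p = 0.0677), and without Th17 replicate 1 the Th17 call (adjusted p = 0.0531).

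Smaller falls were called in some subsets. *Rps24* was at 1476 and 1253 FPKM in naive cells, 958 and 1015 in Th1 cells, 1121 and 1309 in Th2 cells, and 991 and 994 in Th17 cells, with differences of -0.46 in Th1 and -0.45 in Th17 (SE 0.14, adjusted p = 0.0235 and 0.0255, limma) and -0.17 in Th2 (adjusted p = 0.324). Both calls were lost once *Gm9320* was added (adjusted p = 0.0643 and 0.0908). *Gm9320*, the pseudogene row beside it, was at 1723 and 1127 FPKM in naive cells, 1142 and 939 in Th1 cells, 1377 and 1174 in Th2 cells, and 1274 and 942 in Th17 cells. *Rps3a* was at 925 and 870 FPKM in naive cells, 777 and 853 in Th1 cells, 695 and 728 in Th2 cells, and 665 and 722 in Th17 cells, and was lower in Th2 (-0.33) and Th17 (-0.37; SE 0.12, adjusted p = 0.0386 and 0.0271, limma). *Rpl30* was called lower in Th2 (-1.73, SE 0.44, adjusted p = 0.00999, limma), and the difference was -0.01 (adjusted p = 0.979) once the rows of matching pseudogenes were added to it.

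**Figure D4:**
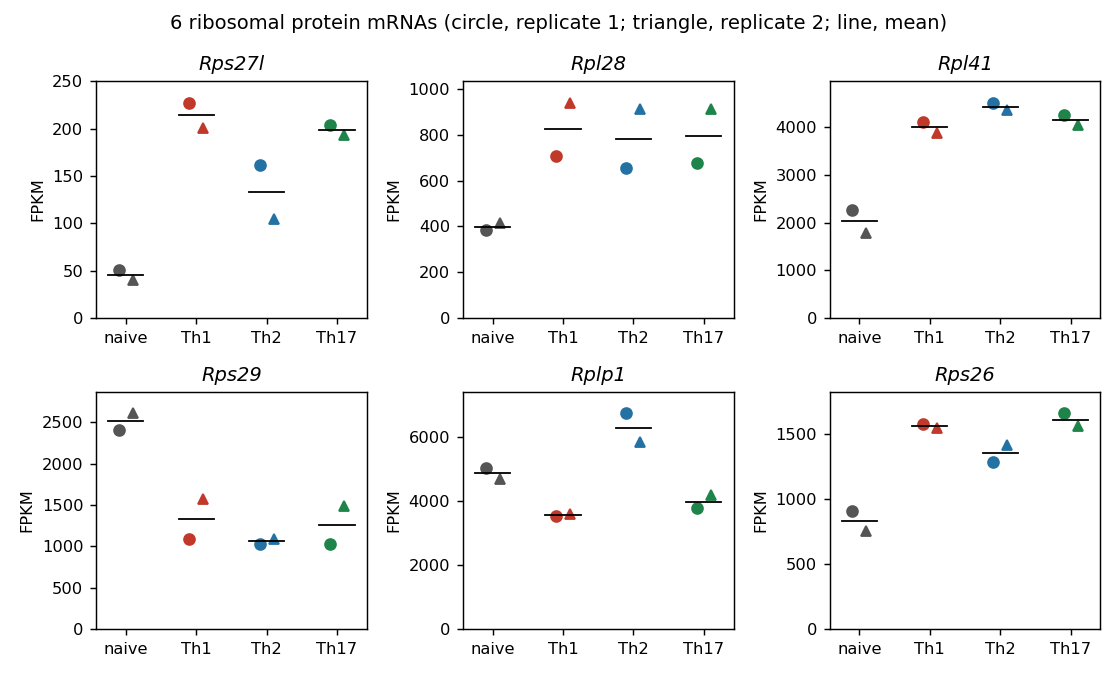
FPKM of 6 ribosomal protein mRNAs in each group, with replicate 1 as a circle, replicate 2 as a triangle and the mean as a line. *Rps27l*, *Rpl28*, *Rpl41* and *Rps26* are higher in all effector libraries than in naive cells, *Rps29* is lower in all of them, and *Rplp1* is highest in Th2.

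The 3 proteins of the ribosomal stalk, which recruits translation factors, did not move together. *Rplp0*, the base of the stalk, was at 1002 and 820 FPKM in naive cells, 1332 and 1280 in Th1 cells, 1360 and 1215 in Th2 cells, and 1424 and 1413 in Th17 cells, with differences of 0.53, 0.50 and 0.65 (SE 0.14, adjusted p = 0.0145, 0.0166 and 0.00592, limma). *Rplp1* was at 5045 and 4691 FPKM in naive cells, 3535 and 3584 in Th1 cells, 6743 and 5833 in Th2 cells, and 3770 and 4195 in Th17 cells. It was lower in Th1 (-0.45, SE 0.16, adjusted p = 0.0368, limma), while the Th2 and Th17 differences of 0.37 and -0.29 did not pass (adjusted p = 0.0706 and 0.138). *Rplp2* was at 1448 and 1144 FPKM in naive cells and at 1066 to 1400 in the effector libraries, and its differences of -0.21, -0.08 and -0.09 did not pass (adjusted p = 0.364, 0.748 and 0.692). A row named *Rplp2-ps1* was at 1288 and 764 FPKM in naive cells, so the level of *Rplp2* is uncertain.

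Among genes with roles beyond the ribosome, *Rpl11*, which with *Rpl5* and 5S RNA binds Mdm2, was at 625 and 502 FPKM in naive cells, 807 and 770 in Th1 cells, 811 and 759 in Th2 cells, and 854 and 767 in Th17 cells. Its differences were 0.49, 0.49 and 0.53 (SE 0.14, adjusted p = 0.0192, 0.0192 and 0.0141, limma). *Rpl5* was at 543 and 532 FPKM in naive cells and at 471 to 647 in the effector libraries, and its differences of -0.12, 0.18 and -0.07 did not pass (adjusted p = 0.4, 0.22 and 0.648). *Rpsa*, the 40S protein also named the laminin receptor, was higher by 0.44, 0.47 and 0.32 (SE 0.12, adjusted p = 0.0141, 0.00955 and 0.0478, limma). *Rps6*, a substrate of S6 kinase, differed by 0.27, 0.43 and 0.26 without passing (adjusted p = 0.321, 0.126 and 0.333), and passed in all 3 with the replicate block (adjusted p = 0.0418, 0.00654 and 0.0458). *Rps27a*, made as a fusion with ubiquitin, was at 434 and 345 FPKM in naive cells and at 407 to 460 in the effector libraries, and its differences of 0.15, 0.20 and 0.08 did not pass.

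Paralogs of ribosomal protein genes were compared with the ordinary gene of each pair. *Rpl22* was at 147 and 110 FPKM in naive cells, 188 and 165 in Th1 cells, 239 and 209 in Th2 cells, and 203 and 176 in Th17 cells, with differences of 0.46, 0.81 and 0.57 (SE 0.17, adjusted p = 0.0442, 0.00425 and 0.0212, limma). *Rpl22l1* was at 214 and 143 FPKM in naive cells, 179 and 146 in Th1 cells, 187 and 137 in Th2 cells, and 194 and 134 in Th17 cells, and its differences of -0.11, -0.12 and -0.11 did not pass (adjusted p = 0.737, 0.703 and 0.726). The pseudogene row *Gm15421*, which shares its sequence, was at 120 and 57.0 FPKM in naive cells and at 54.0 to 112 in the effector libraries. The level of *Rpl22l1* is therefore uncertain. *Rpl7* was higher by 0.38, 0.49 and 0.40 (SE 0.12, adjusted p = 0.0248, 0.00814 and 0.02, limma), whereas *Rpl7l1* was at 23.5 and 21.7 FPKM in naive cells and differed by 0.02, -0.10 and 0.30 without passing, of which the Th17 difference passed with the replicate block (adjusted p = 0.0389). The difference in change between the genes of a pair was not tested. *Rpl39* was at 1852 and 1399 FPKM in naive cells, and its differences of 0.52, 0.46 and 0.65 passed in Th17 (adjusted p = 0.0781, 0.108 and 0.0364) and in all 3 with the replicate block (adjusted p = 0.00864, 0.0137 and 0.00318). *Rpl10* was higher in Th1 (0.37, SE 0.12, adjusted p = 0.0318, limma), while *Rpl10l* was listed at 0, and *Rps4x* differed by 0.13, 0.35 and 0.10 without passing, of which the Th2 difference passed with the replicate block (adjusted p = 0.0363).

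Between the effector subsets, the ribosomal protein mRNAs were close to each other. Between Th1 and Th2, 1 gene was higher and 2 lower in Th1, against 27.4% and 16.9% of all genes tested. Between Th17 and Th2, 2 were higher and 1 lower in Th17, against 31.7% and 12% of all genes. Between Th1 and Th17, 0 passed in limma, 0 had an unadjusted p under 0.05, and the background was 9.17% and 16%. With the replicate block, 2 genes were higher and 4 lower in Th1 than in Th2 (background 33.1% and 20.3%), 4 were higher and 1 lower in Th17 than in Th2 (background 38.3% and 15%), and 0 passed between Th1 and Th17 (background 12.3% and 20.8%), where 1 had an unadjusted p under 0.05. The 78 differences between Th1 and Th17 lay under 0.5 in either direction for 77 genes, *Rps27* being the exception with -1.88 (SE 2.16).

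*Rplp1* was higher in both Th2 libraries than in all other libraries, with a difference of -0.82 in Th1 (SE 0.16, adjusted p = 0.00586, limma) and of -0.66 in Th17 (adjusted p = 0.0146) from Th2. These calls were lost after quantile normalization (adjusted p = 0.27 and 0.425) and with no filter on low values (0.719 and 0.807). *Rps27l* was higher in Th1 than in Th2 by 0.71 (SE 0.21, adjusted p = 0.0339, limma), and in Th17 than in Th2 by 0.60 (adjusted p = 0.0588), which passed with the replicate block (adjusted p = 0.0123). *Rpl37a* was at 646 and 552 FPKM in naive cells, 586 and 591 in Th1 cells, 790 and 747 in Th2 cells, and 670 and 616 in Th17 cells, and was lower in Th1 than in Th2 by a difference of -0.38 (SE 0.13, adjusted p = 0.0439, limma). *Rpl7l1* was at 24.2 and 18.1 FPKM in Th2 and at 28.4 and 27.8 in Th17, a difference of 0.41 (SE 0.14, adjusted p = 0.0484, limma). *Rpl30* was higher in Th17 than in Th2 by 1.46 (SE 0.44, adjusted p = 0.0335), a difference of -0.17 (adjusted p = 0.515) with matching pseudogene rows added.

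Across the genes of the set, the difference between the 2 replicates was correlated between the groups. The replicate 1 minus replicate 2 difference of the 78 genes correlated between each of the 6 pairs of groups with Pearson's r of 0.67 to 0.97, against 0.14 to 0.29 over all genes tested. These r are descriptions across genes, and the members share libraries and related sequence. Genes with large replicate differences weigh most in them. For *Rps27* the difference was 0.95, 5.32, 3.52 and 4.69 in naive, Th1, Th2 and Th17 cells, and r without it was not computed. *Rpl17* was at 142 and 45.2 FPKM in naive cells, 134 and 44.4 in Th1 cells, 154 and 38.2 in Th2 cells, and 146 and 50.3 in Th17 cells, and *Rpl7a* at 43.7 and 18.8, 76.0 and 34.0, 70.0 and 21.0, and 68.7 and 31.8. Both were over 2 times higher in replicate 1 in every group, on the log2(FPKM + 1) scale. Replicate 1 was the higher in all 4 groups for 34 genes and replicate 2 for 10. In naive cells, replicate 1 was the higher for 66 of the 78, and the median size of the replicate difference there was 0.27, against 0.16 over all genes. The FPKM of all genes also summed higher in naive replicate 1 than in replicate 2, at 501704 against 417787. How many of all genes were higher in replicate 1 was not counted, so the lean may not be particular to this set.

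**Figure D5:**
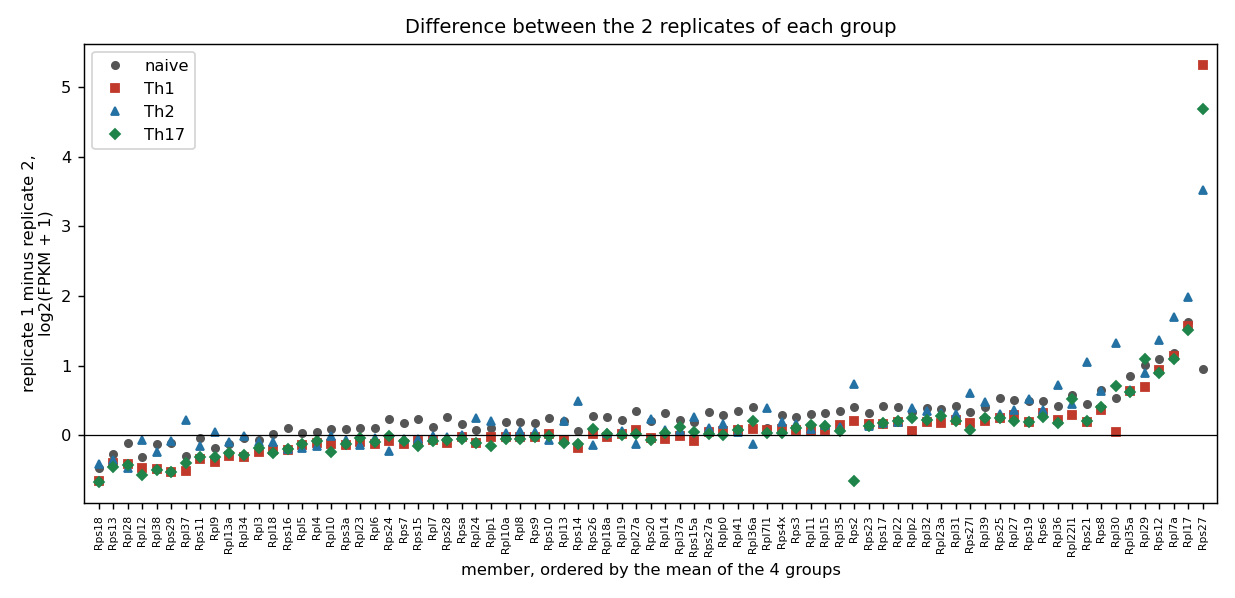
Replicate 1 minus replicate 2 on the log2(FPKM + 1) scale for 77 of the ribosomal protein mRNAs in naive, Th1, Th2 and Th17 cells, ordered by the mean over the groups. The 4 groups follow each other along the order, from *Rps18* at the left to over 1 for *Rpl17* and up to 5.32 for *Rps27* at the right.

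Ribosomal proteins with symbols outside the rule were measured too. *Fau*, the source of eS30, was at 1219 and 1146 FPKM in naive cells, 1479 and 1644 in Th1 cells, 1867 and 1923 in Th2 cells, and 1500 and 1626 in Th17 cells, with differences of 0.40, 0.68 and 0.40 (SE 0.13, adjusted p = 0.0282, 0.00259 and 0.0277, limma). *Gnb2l1*, which encodes RACK1, was higher in Th2 (0.42) and Th17 (0.44; SE 0.13, adjusted p = 0.0205 and 0.0177, limma), and its Th1 difference was 0.31 (adjusted p = 0.0665, and 0.0401 with the replicate block). *Rpl36al* was higher in Th2 (0.50, SE 0.19, adjusted p = 0.0473, limma), and with the replicate block also in Th1 and Th17 (differences 0.47 and 0.36, adjusted p = 0.0119 and 0.0331).

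Of 16 other mRNAs with a known TOP motif, mostly translation factors, 11 were higher in Th1, 12 in Th2 and 11 in Th17 (background 33.8%, 31.8% and 37.5%), and 0 were lower in limma (also 0 with the replicate block). Their median differences were 0.58, 0.56 and 0.69. *Eef2*, the elongation factor of translocation, was at 705 and 806 FPKM in naive cells and at 1319 to 1759 in the effector libraries, with differences of 0.93, 1.08 and 1.04 (SE 0.17, adjusted p = 0.00219, 0.000907 and 0.00123, limma). *Btf3*, of the nascent chain complex, differed by 1.06, 0.90 and 1.03, and *Pabpc1*, which binds poly(A) tails, by 0.75, 1.12 and 1.00. All 6 of these differences passed.

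Genes of ribosome biogenesis, which act in the nucleolus, were more often lower than higher in Th1 and Th2 cells. Of 51 listed, 9 were higher and 21 lower in Th1 cells, 6 and 36 in Th2 cells, and 11 and 12 in Th17 cells, with median differences of -0.14, -0.61 and 0.04. Of all genes tested, 33.8%, 31.8% and 37.5% were higher and 33.5%, 38.7% and 29.8% lower in Th1, Th2 and Th17, shares that apply to the polymerase genes below as well. *Npm1*, the nucleolar chaperone nucleophosmin, was at 186 and 150 FPKM in naive cells and at 335 to 460 in the effector libraries (differences 1.12 to 1.40). *Rrp12* was higher by 0.52, 1.24 and 1.77, and *Nle1* was lower by differences of -1.31, -1.61 and -0.95. Of 13 genes of RNA polymerase I and its factors, which transcribe ribosomal RNA, 2 were higher and 7 lower in Th1 cells, 3 and 8 in Th2 cells, and 3 and 4 in Th17 cells. *Taf1c*, of the promoter selectivity factor, was at 17.2 and 20.4 FPKM in naive cells and at 2.77 to 7.14 in the effector libraries, and *Taf1a* and *Ubtf* were also lower in each subset.

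Of 11 genes that regulate ribosomal protein genes or their translation, 4 were higher and 4 lower in Th1 cells, 3 and 5 in Th2 cells, and 4 and 3 in Th17 cells, where 33.8% and 33.5%, 31.8% and 38.7%, and 37.5% and 29.8% of all genes were called. *Myc*, a transcription factor of growth genes, was at 33.5 and 31.4 FPKM in naive cells, 216 and 227 in Th1 cells, 82.6 and 70.8 in Th2 cells, and 145 and 162 in Th17 cells, with differences of 2.73, 1.21 and 2.20 (SE 0.12, adjusted p = 1.91e-06, 8.1e-05 and 4.54e-06, limma). *Eif4ebp1*, an mTOR-regulated inhibitor of translation, was at 6.13 and 5.96 FPKM in naive cells and at 77.7 to 124 in the effector libraries. *Tsc1*, an inhibitor of mTOR signalling, was lower by differences of -1.05, -1.23 and -0.83. *Myc* was highest in Th1, whereas the ribosomal protein mRNAs differed little between Th1 and Th17 and between Th1 and Th2, and no relation between them was tested.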

How the data were processed

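RNA of 4 groups with 2 libraries each was sequenced with 50-base reads. Alignment by the authors used TopHat 1.3.2 with Bowtie 0.12.8 against mm10, and the deposited FPKM per gene came from Cufflinks 2.0.2, with no further scaling stated. The gene annotation is not given in the sources used here. The methods name an unstranded kit and the labels a stranded one, so overlapping antisense genes could share reads. The 8 tables hold no read counts, and depth was estimated from the deposited FPKM confidence intervals. Groups and replicate numbers came from the labels.

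Rows of a symbol were summed, and each of the 78 members had 1 row, estimated without failure in every library. The 11198 genes averaging 1 FPKM or more were fitted on log2(FPKM + 1), a scale that understates the change of low genes, with limma 3.58.1 in R 4.3.3 (4 group means, all 8 libraries, mean-variance trend). Tests were two-sided, with Benjamini-Hochberg adjustment over all genes tested and a threshold of 0.05. The fit was also run on simulated data with 200 of the 11198 genes changed. Far more genes were called in the data, 3790 higher and 3750 lower in Th1 minus naive. The simulation therefore does not measure how small a difference these tests could find. With 2 libraries per group, a gene that did not pass is not shown to be unchanged. Same-numbered libraries deviated together in every pair of groups (r = 0.14 to 0.29 over all genes tested), so the replicate number was treated as a pairing and fitted as a block beside the main fit. Whether a number marks a shared day is not stated.

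Members and lists were chosen with earlier results of these data known. Named genes were the paralog pairs, 8 genes by role, the 5 largest rises and 5 largest falls called in each effector minus naive comparison, the 3 largest differences called between subsets, the 5 highest and 5 lowest means, ribosomal proteins outside the rule, and the 3 genes of each pathway list with the largest mean difference among those called in all 3 subsets. *Gm15772* and the other pseudogenes, *Rpl17* and the genes listed by name only were added after their values were seen. Values of 1 member and of 1 ribosomal protein gene outside the rule are not reported here by name, and that member is not drawn in the plots that name genes. Shared 50-base words were counted in GENCODE vM21 transcripts, where 83 of the 84 symbols matched. Promoters were those of RefSeq, where 59 of the 78 matched. Alternatives were another pseudocount, other filters, median scaling, quantile normalization, a fit of 2 groups, no trend, the replicate block, the largest row, pseudogene rows added, centring on the members and each library left out. Python 3.11.15, pandas 2.3.3, numpy 2.4.6 and matplotlib 3.10.9 were used.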

Additional observations from a re-analysis of the deposited data

Results flagged for a closer look

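A difference between effector subsets that passed the test was found for 5 of the named genes. *Rplp1* was lower in Th1 than in Th2 (-0.82 on the log2 scale) and lower in Th17 than in Th2 (-0.66). *Rps27l* was higher in Th1 than in Th2 (0.71), and *Rpl37a* was lower in Th1 than in Th2 (-0.38). *Rpl7l1* was higher in Th17 than in Th2 (0.41). *Rpl30* was higher in Th17 than in Th2 (1.46), and the sign of this difference turned once the pseudogene row *Gm12191* was added. Each is a direct test of the difference between 2 subsets (limma), in which naive libraries enter only the shared estimate of the spread. Each also passed with the replicate block.

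The pseudogene row *Gm6654*, which shares 41.9% of the coding words of *Rps26* and lies outside the gene set, was above the naive libraries in every effector library, its lowest effector FPKM being 249 and its highest naive FPKM 192.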

How the results depend on the processing

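Counts are of ribosomal protein genes higher and lower, 21 and 3 against naive cells in each subset before any alternative. With no filter on low values they were 9 and 0, 10 and 1, and 11 and 0 in Th1, Th2 and Th17 minus naive, and 0 in both directions in Th1 and in Th17 minus Th2. In fits of the 2 groups compared they were 11 and 1, 11 and 2, and 12 and 1 against naive cells, 0 and 1 in Th1 minus Th2, and 0 and 0 in Th17 minus Th2. After quantile normalization they were 9 and 4, 17 and 5, and 14 and 4, then 0 and 1, and 0 and 0. Median scaling gave 21 and 3, 30 and 2, and 16 and 3, then 0 higher in Th1 minus Th2, and 0 and 5 in Th17 minus Th2. Without the trend, 1 gene was higher in Th17 minus Th2, as with all sequence-matched pseudogene rows added (chosen after seeing the data). Centred on the members, they were 8 and 7, 10 and 9, and 8 and 10, then 2 and 1 in Th1 minus Th2.

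With the replicate block, 5, 8 and 5 genes were lower than in naive cells, 2 were higher and 4 lower in Th1 minus Th2, and 4 were higher in Th17 minus Th2. Both alternatives that joined the block with a scaling were chosen after seeing the data. Centred with the block, 23, 25 and 25 were lower than in naive cells, with 9 and 5 in Th1 minus Th2, 6 and 8 in Th17 minus Th2, and 2 higher in Th1 minus Th17. Median scaling with the block gave 29 and 5, 45 and 5, and 26 and 7 against naive cells in Th1, Th2 and Th17. It gave 2 and 7 in Th1 minus Th2, 2 and 16 in Th17 minus Th2, and 1 higher in Th1 minus Th17.

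With 1 library left out, 10 to 22 genes were higher and 0 to 3 lower in Th1, 1 to 4 lower in Th2, and 13 to 25 higher and 0 to 3 lower in Th17 minus naive. The ranges were 0 to 2 in both directions in Th1 minus Th2, and 0 to 3 higher and 0 to 1 lower in Th17 minus Th2.

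Of the pathway lists against naive cells, biogenesis genes higher in Th1 (9) were 5 with no filter. RNA polymerase I genes higher in Th1 (2) were 1 with no filter, after quantile normalization and in the fit of 2 groups, and 1 to 2 with a library left out. Other TOP mRNAs higher in Th1 (11) were 7 after quantile normalization, and 1 was lower in Th17 without the trend, where the range with a library left out was 0 to 1. Regulators lower in Th1 (4) were 1 with no filter and 2 in the fit of 2 groups, and 1 to 4 with a library left out, and those lower in Th2 were 3 to 5. The mean summed FPKM of the ribosomal protein genes was 75936 in Th1 and 76968 in Th17 with pseudogene rows named for them added. The difference of *Rpl30* between Th17 and Th2 turned to -0.17 with all sequence-matched rows added. Of 1210 values of the 55 named differences, 972 kept their direction and side of the threshold and 237 kept the direction only. Some alternatives could hardly change a value. Each of the 78 members had 1 row, so taking the largest row left every member as it was. Adding pseudogene rows left the FPKM of most members as it was. Values that stayed the same under these alternatives therefore lend no support. The cause of the changes was not tested. Files hold FPKM and no counts, so depth limits could not be set per gene.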

Other observations

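Splitting the comparison by replicate number gives a view without the difference between replicates. For *Rps27l*, the difference from naive cells on the log2(FPKM + 1) scale was 2.13 in replicate 1 and 2.28 in replicate 2 for Th1 cells, 1.63 and 1.35 for Th2 cells, and 1.97 and 2.23 for Th17 cells. For *Rps29*, it was -1.15 and -0.73 for Th1 cells, -1.23 and -1.26 for Th2 cells, and -1.22 and -0.81 for Th17 cells. For *Rpl28*, it was 0.88 and 1.18 for Th1 cells, 0.77 and 1.13 for Th2 cells, and 0.81 and 1.13 for Th17 cells. For *Rpl7a*, which did not pass without the block, it was 0.78 and 0.82 for Th1 cells, 0.67 and 0.15 for Th2 cells, and 0.64 and 0.73 for Th17 cells, and with the block it passed in Th1 and Th17 (adjusted p = 0.00386 and 0.00761, limma). For *Rps27*, it was 2.47 and -1.91 for Th1 cells, going opposite ways, 4.10 and 1.52 for Th2 cells, and 4.03 and 0.28 for Th17 cells.

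Among the genes under the limit of FPKM, *Rpl39l* had a value of 1.16 in naive replicate 1 and 0.07 in replicate 2, with 0.60 and 0.06 in Th1 cells, 0.93 and 0.22 in Th2 cells, and 0.88 and 0.21 in Th17 cells. *Rpl21* was at 0.83 and 0.60 in naive cells, 0.98 and 0.52 in Th1 cells, 0.91 and 0.59 in Th2 cells, and 0.87 and 0.70 in Th17 cells. Replicate 1 was the higher in each group for both.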
